A study of Mus musculus with 24 samples.

Results

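The comparison asked what cyclosporine (CSA) added to ruxolitinib (RUX) in CD4 T cells from the marrow of mice with bone marrow failure. Its 6 libraries are the CD4 libraries whose subject labels read RUX+CSA-treated (pools 22 to 24) or RUX-treated (pools 19 to 21), out of 24 libraries in the series. All the mice were female CByB6F1 animals aged 2 to 5 months with bone marrow failure, so the disease, the hybrid strain and, in these 6 libraries, RUX were common to both groups. The CD4 cells were sorted by flow cytometry, and each library holds cells of 2 to 3 mice of the same treatment put together, so the pool is the replicate and single animals were not measured. RUX was given at a low dose per the series' description, and no dose or length of treatment is in the labels used here. The other libraries used were 3 CD4 pools each of untreated and CSA-treated mice, and 12 CD8 libraries of the same 4 treatments. The labels do not say whether pools of a treatment were made on separate days, so the p-values measure the spread between these pools.

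Cyclosporine binds cyclophilin, and the complex blocks calcineurin, the phosphatase that lets NFAT transcription factors enter the nucleus after the T cell receptor is engaged. NFAT drives cytokine genes such as Il2 together with AP-1, while other parts of the receptor response, such as Egr1, run through ERK kinases. Ruxolitinib inhibits the kinases JAK1 and JAK2, which relay interferon and cytokine signals to STAT transcription factors. In immune bone marrow failure, T cells that make interferon-gamma destroy blood stem and progenitor cells, while FOXP3-positive regulatory CD4 cells restrain them, and cyclosporine is an established treatment.

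The libraries held 17.7 to 32.7 M counted read pairs, and 3 read pairs in a library stood for 0.0916 to 0.170 CPM (counts of a gene per M read pairs in the library). Log2 CPM values correlated at 0.967 to 0.979 between the RUX libraries, 0.955 to 0.962 between the RUX+CSA libraries and 0.944 to 0.959 across the groups. The sort label held: Cd4 lay at 1353, 1196 and 1464 CPM in the RUX libraries and 1580.1, 1737 and 1404 CPM in the RUX+CSA libraries, while Cd8a lay at 1.18, 4.35 and 2.12 CPM with RUX and 2.02, 1.56 and 1.99 CPM with both drugs. The other cell types in the libraries were not alike in both groups. Summed over 24 neutrophil and granulocyte markers, the level was 4659 to 8863 CPM with RUX and 9409 to 11554 CPM with both drugs, beside 12013 to 12280 and 12799 to 14215 CPM for 18 T cell genes. These markers are given beside the gene groups below.

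Adding CSA changed 103 of 13175 genes tested at an adjusted p below 0.05, which is 0.782%. Of these, 76 were higher with both drugs (0.577% of genes tested) and 27 were lower (0.205%). The leading genes that rose encode surface receptors of cytotoxic lymphocytes (Klrc1, Klrk1, Klre1), the nuclear lamina protein lamin A/C (Lmna), the signalling brake Sprouty 2 (Spry2) and the transcription factors Bach2, Hivep3 and Tsc22d1. Those that fell included Foxp3, the regulatory T cell factor, Cdk6, a kinase that drives entry into the cell cycle, and Arrdc4, an arrestin-like regulator of glucose uptake. In all 103 genes the 3 libraries of one group lay beyond the 3 of the other, which was also so for 1450 genes higher (11%) and 1457 lower (11.1%) over all genes tested. More than 2-fold change was seen in 56 of the 103, and the median over all genes was -0.01 on the log2 scale. An unadjusted p below 0.05 was found for 1881 of the 13175 genes tested, 882 higher and 999 lower. The list counts at that level given below are to be read beside this share. The test is edgeR's quasi-likelihood test over all 12 CD4 libraries, and 27 of the 103 genes (25 higher, 2 lower) passed whichever of the 6 libraries was left out. The count itself fell to 35, 43 and 46 without RUX pools 19, 20 and 21, and to 41, 44 and 90 without RUX+CSA pools 22, 23 and 24, while DESeq2 called 552 and edgeR on the 6 libraries alone 560. In edgeR over all 24 libraries, 71 of the 103 genes passed. Among the genes described below, Cd44, Cdk6, Dusp5, Egr3, Epcam, Fam46c, Gldc, Il12rb2, Itga1, Klrd1, Klre1, Lgals3, Pkdcc, Ptpn6 and Slamf7 did not pass there. Their adjusted p ran from 0.0553 for Klre1 to 0.18 for Il12rb2.

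**Figure D1:**
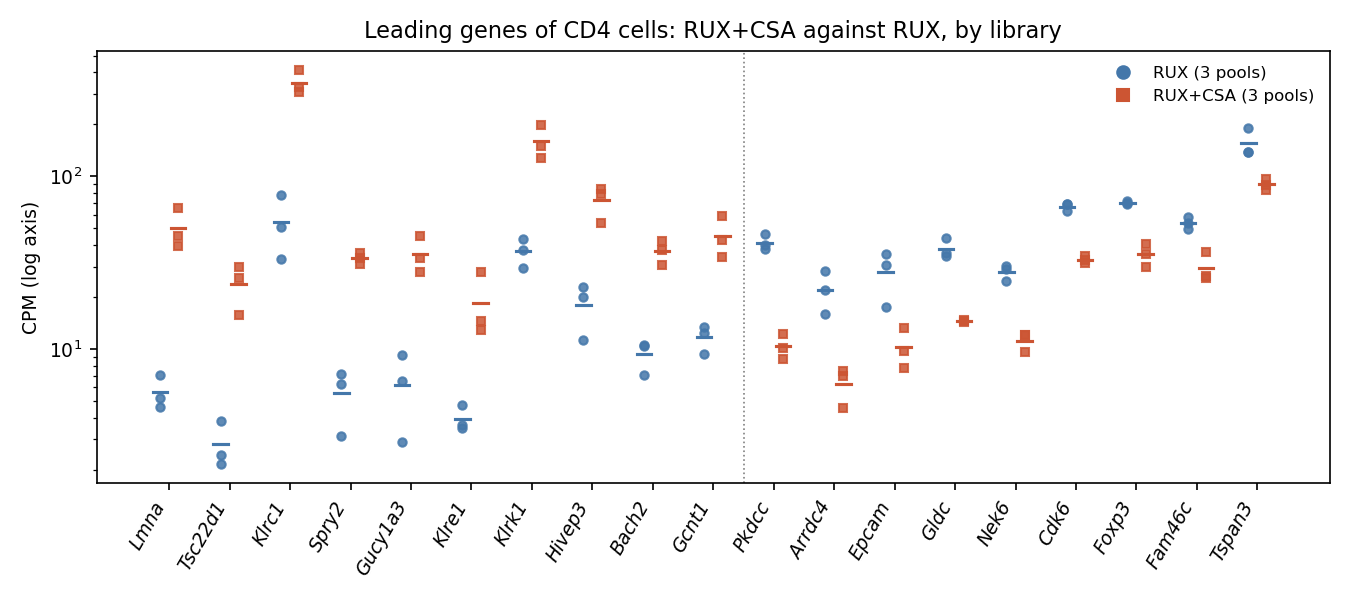
Level of the 10 genes with the largest rise (left of the dotted line) and 9 of those with the largest fall (right), in CPM on a log axis. Each symbol is 1 library, a pool of 2 to 3 mice, and each bar is the mean of 3. In each gene drawn, the 3 RUX+CSA libraries lie all above or all below the 3 RUX libraries.

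Several of the genes that rose encode killer cell lectin-like receptors. These genes sit side by side on mouse chromosome 6 and are known from NK cells and activated CD8 T cells. Klrk1 (the activating receptor NKG2D) was at 37.4, 29.7 and 43.5 CPM in the RUX libraries and 149.8, 199.6 and 128 CPM in the RUX+CSA libraries. The groups were far apart, and the gene rose (log2 fold change 2.11, SE 0.20, adjusted p = 0.000828). Klrc1, which encodes the inhibitory receptor NKG2A, was at 33.3, 78.6 and 50.8 CPM in the RUX libraries and 411, 329 and 307 CPM in the RUX+CSA libraries. The lowest RUX+CSA library was well above the highest RUX library, and the RUX libraries spread widely (log2 fold change 2.69, SE 0.32, adjusted p = 0.00534). Klrd1 (CD94), the partner chain of NKG2A, was at 63.3, 73.5 and 82.9 CPM in the RUX libraries and 172, 207 and 174 CPM in the RUX+CSA libraries. Its rise was smaller on the log2 scale (log2 fold change 1.33, SE 0.16, adjusted p = 0.00232).

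Klre1, which encodes another inhibitory lectin-like receptor, rose from 3.95 ± 0.681 to 18.5 ± 8.32 CPM (log2 2.22, adjusted p = 0.0351), and passed in none of the 6 fits with 1 library left out, with adjusted p up to 0.144 without RUX pool 20. Between the start of Klre1 and the end of Klrc1, from 129578286 to 129678973 on chromosome 6 (mm10), the tested genes run in the order Klre1, Klrd1, Klrk1, Klrc2, Klrc1. Of 15 Klr genes tested on that chromosome, 5 were higher, none was lower, and all 15 had a fold change above 0. The fifth, Klra3, was named after its values were seen (log2 fold change 3.27, SE 0.54, adjusted p = 0.0174). Its family has near-identical copies whose reads can be split or shared, so that value is uncertain.

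Markers of other cells that carry these receptors were set beside them. Of 16 NK cell marker genes in the table, 13 were tested and 2 rose, the Klrk1 and Klre1 already counted. Their summed level was 194 to 228 CPM with RUX and 328 to 413 CPM with both drugs, and Klra8 and Klra4 were at 0 in all 6 libraries. That sum includes Klrk1 itself, at 37.4, 29.7 and 43.5 CPM with RUX and 149.8, 199.6 and 128 CPM with both drugs. Ncr1 (NKp46), a defining NK gene, was at 0, 0.0327 and 0.0493 CPM with RUX and 0.772, 1.49 and 1.64 CPM with both drugs, apart at very low levels. Of 10 CD8 lineage genes tested, the 2 that rose were Klrc1 and Klrd1, and the list summed to 517 to 668 CPM against 778 to 919 CPM. The CD8 sum includes Klrd1 and Klrc1, the latter at 33.3, 78.6 and 50.8 CPM with RUX and 411, 329 and 307 CPM with both drugs. Neither sum is thus a measure of other cells that is separate from the receptor genes. Other members of the CD8 list went the other way. Gzmk (granzyme K) was at 53.9, 31.5 and 65.0 CPM with both drugs against 157, 251 and 133 CPM with RUX (log2 -1.85, adjusted p = 0.22), and Itgae (the integrin chain CD103) was at 10.9, 11.0 and 17.7 CPM with both drugs against 27.6, 21.5 and 34.4 CPM with RUX (log2 -1.08, adjusted p = 0.114). In both genes the groups were apart and lower with both drugs. DESeq2 and edgeR on the 6 libraries alone each called 2 higher and 2 lower in this list. Cd8b1 was at 8.87, 11.3 and 9.96 CPM with RUX and 12.9, 9.45 and 11.6 CPM with both drugs, which overlap. Markers of gamma-delta and innate-like T cells summed to 7.89 to 12.4 CPM with RUX and 19.4 to 26.3 CPM with both drugs. Of 7 tested, 4 had an unadjusted p below 0.05, and none passed in edgeR over 12 libraries or in limma voom. DESeq2 called 3 higher and edgeR on the 6 libraries alone called 2 higher. With RNA from sorted pools, more cells that carry a gene and more RNA per cell cannot be told apart. The part of NK cells and of gamma-delta and innate-like T cells in these changes was not tested.

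Other genes of effector T cells rose with the receptors. Over the 50 effector and activation genes tested, 7 were higher and none lower, the median log2 fold change was 0.41, and 37 were above 0. The 7 include the receptor genes already counted, Klrc1, Klrd1 and Klrk1, beside Lmna, Cd44, Itga1 and Lgals3. Higher and lower calls numbered 13 and 4 in DESeq2, 15 and 4 in edgeR on the 6 libraries alone, and 6 and 0 in limma voom, and 1 member was lower without RUX pool 20. The list's mean level was 6.72 to 6.84 log2 CPM with RUX and 7.30 to 7.43 with both drugs. The 3 members with the smallest p were Klrk1, Klrd1 and Lmna. Lmna was at 7.05, 4.61 and 5.23 CPM in the RUX libraries and 65.8, 39.8 and 45.4 CPM in the RUX+CSA libraries. It had the largest rise among genes averaging 3 or more on the log2 CPM scale, from 5.63 ± 1.27 to 50.3 ± 13.7 CPM (log2 fold change 3.16, SE 0.39, adjusted p = 0.0041). Lamin A/C is made by activated and tissue-resident T cells, and is known to be low in resting ones.

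Il12rb2, the chain of the interleukin-12 receptor that marks T helper 1 cells, was at 48.3, 47.8 and 45.1 CPM in the RUX libraries and 106, 113 and 116 CPM in the RUX+CSA libraries. Replicates were tight in both groups (log2 fold change 1.25, SE 0.16, adjusted p = 0.00247), and adjusted p was 0.18 in the 24-library fit. It was the member that passed among 22 T helper 1 genes (1 higher, none lower, median 0.13). Tbx21, the master regulator of that lineage, was at 296, 346 and 314 CPM with both drugs against 237, 225 and 238 CPM with RUX, apart but short of the threshold (log2 0.45, adjusted p = 0.099). Ifng, the main cytokine of these cells, overlapped at 129.6, 131 and 239 CPM in the RUX libraries and 193, 188 and 200.04 CPM in the RUX+CSA libraries (log2 0.22, adjusted p = 0.848). Slamf7, an activating receptor of the SLAM family, rose from 39.5 ± 1.10 to 93.0 ± 5.47 CPM (log2 fold change 1.24, SE 0.19, adjusted p = 0.00645), with adjusted p = 0.0583 without RUX pool 19. Slamf7 passed in 4 of the 6 fits with 1 library left out. It was the member that passed among 30 costimulation and TNF superfamily genes.

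Of 40 homing receptor and integrin genes, 2 rose and none fell (median 0.31). Cd44, the hyaluronan receptor of antigen-experienced cells, rose from 215 ± 19.7 to 357 ± 31.9 CPM (log2 fold change 0.73, SE 0.11, adjusted p = 0.00586), with adjusted p = 0.0563 without RUX pool 19. Itga1, the collagen-binding integrin chain of tissue-resident cells, was at 11.8, 12.9 and 14.1 CPM with both drugs against 3.07, 5.46 and 2.22 CPM with RUX (log2 fold change 1.84, SE 0.37, adjusted p = 0.0329), with adjusted p up to 0.183 without RUX pool 19 and 0.128 by limma voom. Gcnt1, an enzyme that builds core 2 glycans for selectin binding, rose from 11.8 ± 2.15 to 45.4 ± 12.6 CPM (log2 1.95, adjusted p = 0.0133), and reached 0.0813 without RUX pool 19. With 1 library left out, Cd44 passed in 5 of 6 fits, Gcnt1 in 2 and Itga1 in 1. Among 29 inhibitory receptor and exhaustion genes, 1 rose, Pdcd1lg2, a ligand of PD-1 (log2 0.82, adjusted p = 0.0467). It passed in none of the 6 fits with 1 library left out, with adjusted p up to 0.167 without RUX pool 19. Pdcd1 itself was at 1045, 809.8 and 939 CPM in the RUX libraries and 738, 962 and 861 CPM in the RUX+CSA libraries, overlapping (log2 -0.13, adjusted p = 0.818), and so was Ctla4 (log2 -0.03, adjusted p = 0.977).

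Bach2, a repressor that holds T cells in a naive or stem-like memory state, was at 7.05, 10.4 and 10.5 CPM in the RUX libraries and 37.4, 42.3 and 30.8 CPM in the RUX+CSA libraries. The rise was clear of both groups' spread (log2 fold change 1.98, SE 0.26, adjusted p = 0.00274), and no left-out library took adjusted p above 0.022. Bach2 is also made by B cells, whose markers summed to 20.3 to 23.9 CPM with RUX and 42.7 to 153 CPM with both drugs, and their part in the rise was not tested. Among 34 naive and memory genes, Bach2 was the member that passed, with a median of 0.42 and 24 above 0. The list's mean level was 5.25 to 5.34 log2 CPM in the RUX libraries and 5.59 to 5.83 in the RUX+CSA libraries, which did not overlap. Tcf7, another factor of naive and memory cells, overlapped at 242, 379.7 and 259 CPM in the RUX libraries and 501, 354 and 331 CPM in the RUX+CSA libraries (log2 0.43, adjusted p = 0.578). Hivep3, a zinc finger factor, was at 79.1, 85.02 and 53.8 CPM with both drugs against 22.8, 11.3 and 20.1 CPM with RUX (log2 fold change 2.01, SE 0.26, adjusted p = 0.00453). Tsc22d1, a leucine zipper factor induced by TGF-beta, rose from 2.82 ± 0.887 to 23.8 ± 7.25 CPM (log2 fold change 3.07, SE 0.43, adjusted p = 0.00458), and Gucy1a3, a subunit of the nitric oxide receptor guanylate cyclase, from 6.24 ± 3.21 to 35.5 ± 8.84 CPM (log2 2.51, adjusted p = 0.00466).

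The smallest p of the comparison belonged to Tspan2, a tetraspanin, at 15.1, 19.3 and 18.2 CPM in the RUX libraries and 45.0, 48.1 and 47.5 CPM in the RUX+CSA libraries (log2 fold change 1.42, SE 0.14, adjusted p = 0.000611). Xdh, the xanthine dehydrogenase of purine breakdown, was at 348, 346 and 375 CPM in the RUX libraries and 630.02, 637 and 658 CPM in the RUX+CSA libraries. Its groups were narrow and well apart (log2 fold change 0.85, SE 0.11, adjusted p = 0.00232). Lgals3 (galectin 3) and Plek (pleckstrin) rose by 0.75 (adjusted p = 0.00534) and 0.75 (adjusted p = 0.00256) on the log2 scale. Both are also made by myeloid cells, whose neutrophil markers were higher in the same libraries, and their part was not tested. These 4 genes were named after their values were seen.

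Immediate early genes, which T cells switch on within minutes of a receptor signal, were of interest since CSA acts on that response. Of 39 tested, 3 rose (Egr3, Egr1 and Dusp5), none fell, 32 were above 0 and the median was 0.41. The median ran from 0.17 without RUX pool 20 to 0.74 without RUX pool 21. DESeq2 and edgeR on the 6 libraries alone each called 9 higher, and limma voom 4. Egr1 was at 93.0, 73.6 and 130.2 CPM in the RUX libraries and 259, 261 and 217 CPM in the RUX+CSA libraries (log2 fold change 1.31, SE 0.18, adjusted p = 0.00466). Egr3 was at 11.2, 9.80 and 11.9 CPM in the RUX libraries and 29.4, 27.7 and 23.5 CPM in the RUX+CSA libraries (log2 fold change 1.29, SE 0.16, adjusted p = 0.00232). Both passed with any of the 6 libraries left out. Their relative Egr2, in contrast, overlapped at 41.8, 46.7 and 54.9 CPM in the RUX libraries and 46.8, 47.0 and 40.8 CPM in the RUX+CSA libraries (log2 -0.09, adjusted p = 0.914). Dusp5, a phosphatase that switches off nuclear ERK, rose from 78.8 ± 12.8 to 146 ± 14.4 CPM (log2 0.89, adjusted p = 0.0128), and reached adjusted p = 0.0701 without RUX pool 20. It passed in 4 of the 6 fits with 1 library left out.

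Nr4a1 (Nur77), a widely used readout of receptor signalling, was at 79.1, 40.4 and 88.4 CPM in the RUX libraries and 343, 248 and 275 CPM in the RUX+CSA libraries. The groups were apart and the fitted difference was large (log2 fold change 2.06, SE 0.44, adjusted p = 0.0754), but it did not pass in edgeR over 12 libraries. It passed in limma voom (adjusted p = 0.00778), in DESeq2 (adjusted p = 0.000545) and in edgeR on the 6 libraries alone (adjusted p = 0.0247). Spry2, which restrains the RAS and ERK pathway, was at 6.32, 3.14 and 7.20 CPM in the RUX libraries and 36.1, 31.2 and 33.8 CPM in the RUX+CSA libraries. The difference was many times its error (log2 fold change 2.61, SE 0.37, adjusted p = 0.00466). The mean level of the immediate early list in the RUX libraries, 5.87 to 6.94 log2 CPM, overlapped that with both drugs, 6.86 to 7.06.

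NAB1 and NAB2 are corepressors that bind EGR proteins, and they moved in opposite directions. Nab2 was at 47.6, 40.4 and 45.9 CPM in the RUX libraries and 88.8, 77.1 and 84.3 CPM in the RUX+CSA libraries (log2 fold change 0.90, SE 0.11, adjusted p = 0.00232). Nab1 was at 486, 498 and 534 CPM in the RUX libraries and 369, 333 and 368 CPM in the RUX+CSA libraries (log2 fold change -0.50, SE 0.11, adjusted p = 0.0472). Neither pair of groups overlapped, and Nab2 passed without any 1 of the 6 libraries. Nab1 passed in none of those 6 fits, with adjusted p up to 0.174 without RUX+CSA pool 23. Both were named after their values were seen. Since Egr1, Egr3, Nab2 and Nab1 all changed, the promoter windows of the 2 corepressors are shown, 250 bases before to 50 after the start in RefSeq (GRCm38.p6), with the EGR motif GCGNGGGCG in capitals on either strand. Nab1 lies at chr1:52500399-52500698, minus strand and Nab2 at chr10:127666654-127666953, minus strand.
Nab1: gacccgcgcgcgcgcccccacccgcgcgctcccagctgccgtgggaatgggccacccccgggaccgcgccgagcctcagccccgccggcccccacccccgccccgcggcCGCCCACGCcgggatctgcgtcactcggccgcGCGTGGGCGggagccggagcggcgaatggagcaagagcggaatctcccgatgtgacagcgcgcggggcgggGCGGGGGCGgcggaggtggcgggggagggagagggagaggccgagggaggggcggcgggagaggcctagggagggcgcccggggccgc
Nab2: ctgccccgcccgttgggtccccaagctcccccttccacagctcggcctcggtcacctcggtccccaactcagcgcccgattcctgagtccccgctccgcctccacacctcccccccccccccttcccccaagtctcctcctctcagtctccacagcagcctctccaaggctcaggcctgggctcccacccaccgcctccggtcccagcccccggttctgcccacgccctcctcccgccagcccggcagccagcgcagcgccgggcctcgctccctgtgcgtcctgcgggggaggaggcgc
The Nab1 window held 3 matches, beginning 141, 109 and 38 bases before the start, and the Nab2 window held none. Of all 32851 windows of this length, 5.55% held a match. Among genes with a window, the share was 10.3% of genes that rose (6 of 58), 14.3% of those that fell (3 of 21) and 11.7% of all tested (1168 of 9995). No window was matched for Egr3.

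Among the genes of the machinery that CSA acts on, NFAT genes rose. Of 25 genes for calcineurin, NFAT and immunophilins, 2 rose and none fell (median 0.04). Nfatc1 was at 792, 774 and 889 CPM in the RUX libraries and 1421, 1465 and 1262 CPM in the RUX+CSA libraries. The gene rose (log2 fold change 0.76, SE 0.13, adjusted p = 0.0134), and its adjusted p reached 0.098 without RUX pool 19. It passed in 2 of the 6 fits with 1 library left out. Nfatc3 rose from 306 ± 29.5 to 478 ± 28.9 CPM (log2 0.64, adjusted p = 0.0353), and passed in none of the 6 fits with 1 library left out (up to 0.19 without RUX pool 19). Nfatc2 (log2 0.15, adjusted p = 0.715), the calcineurin catalytic subunits Ppp3ca (log2 0.15, adjusted p = 0.539) and Ppp3cb (log2 -0.05, adjusted p = 0.861), and Ppia, the cyclophilin that binds CSA (log2 -0.21, adjusted p = 0.424), did not pass.

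Of 49 calcineurin and NFAT targets tested, 3 rose (Egr3, Egr1 and Nfatc1), none fell, 24 were above 0 and 25 below, and the median was -0.03 against -0.01 over all genes. With 1 library left out that median ran from -0.03 to 0.12. EdgeR on the 6 libraries alone called 4 of these targets higher and 1 lower. Il2, the classical target, was low at 2.79, 1.37 and 1.58 CPM in the RUX libraries and 1.20, 1.46 and 2.10 CPM in the RUX+CSA libraries, and the groups overlapped (log2 -0.28, adjusted p = 0.874). Rcan1, a calcineurin inhibitor that NFAT itself induces, was at 22.5, 20.2 and 28.4 CPM in the RUX libraries and 18.1, 21.4 and 21.0 CPM in the RUX+CSA libraries, also overlapping (log2 -0.23, adjusted p = 0.702). Tnf (log2 -0.43, adjusted p = 0.504), Fasl (log2 -0.20, adjusted p = 0.714), Cd40lg (log2 0.26, adjusted p = 0.556) and Icos (log2 -0.15, adjusted p = 0.514) did not pass. Irf4, a factor that scales with receptor strength, was apart at 44.3, 50.6 and 39.6 CPM with both drugs against 26.8, 32.3 and 32.7 CPM with RUX but did not pass (log2 0.55, adjusted p = 0.116).

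Among 40 components of T cell receptor signalling, 1 passed, Ptpn6 (SHP-1), a phosphatase that dampens the receptor signal. It was at 425, 444 and 483 CPM in the RUX libraries and 737, 730.5 and 725 CPM in the RUX+CSA libraries, with a very narrow RUX+CSA group (log2 fold change 0.70, SE 0.14, adjusted p = 0.0262). The call was lost in each of the 6 fits with 1 library left out, with adjusted p up to 0.155 without RUX pool 19.

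**Figure D2:**
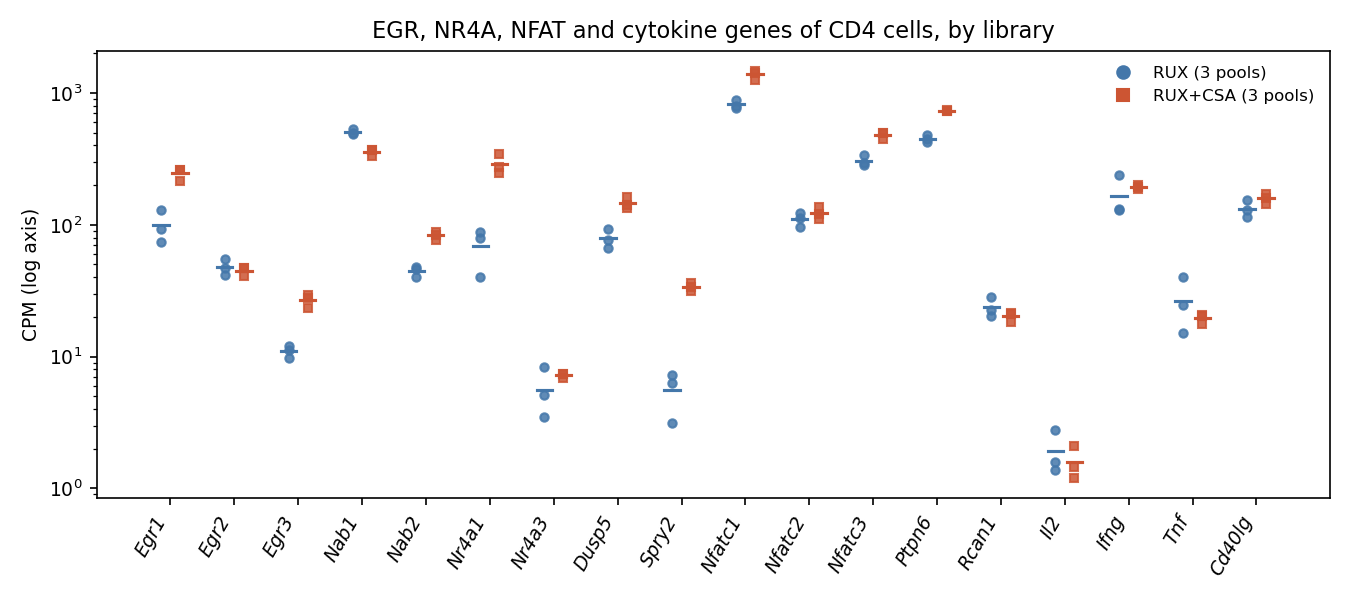
Level of EGR, NAB, NR4A, NFAT and cytokine genes in CPM on a log axis, 1 symbol per library and a bar for the mean of 3. Egr1, Egr3, Nab2, Nr4a1, Dusp5, Spry2, Nfatc1, Nfatc3 and Ptpn6 lie apart and higher with both drugs (Nr4a1 without passing in edgeR over 12 libraries) and Nab1 lower, while Egr2, Nr4a3, Nfatc2, Rcan1, Il2, Ifng, Tnf and Cd40lg overlap.

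Foxp3, the factor that defines regulatory T cells, was at 69.9, 72.4 and 69.1 CPM in the RUX libraries and 40.6, 30.1 and 35.8 CPM in the RUX+CSA libraries. It fell from 70.5 ± 1.72 to 35.5 ± 5.26 CPM (log2 fold change -0.99, SE 0.17, adjusted p = 0.0141). With 1 library left out the log2 fold change ran from -1.11 to -0.89, and 4 of those 6 fits did not pass, with adjusted p up to 0.0838 without RUX+CSA pool 23. Foxp3 was the member that passed among 31 regulatory T cell genes (none higher, 1 lower, 22 below 0, median -0.25). Il2ra (CD25), the high-affinity interleukin-2 receptor chain carried by these cells, overlapped at 131, 90.0 and 146 CPM in the RUX libraries and 76.9, 111 and 73.2 CPM in the RUX+CSA libraries (log2 -0.49, adjusted p = 0.619).

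A promoter window of Foxp3 is shown because NFAT is a known regulator of this gene. It is at chrX:7580233-7580532, plus strand (RefSeq, GRCm38.p6), with the NFAT core motif GGAAAA, searched on either strand, in capitals.
Foxp3: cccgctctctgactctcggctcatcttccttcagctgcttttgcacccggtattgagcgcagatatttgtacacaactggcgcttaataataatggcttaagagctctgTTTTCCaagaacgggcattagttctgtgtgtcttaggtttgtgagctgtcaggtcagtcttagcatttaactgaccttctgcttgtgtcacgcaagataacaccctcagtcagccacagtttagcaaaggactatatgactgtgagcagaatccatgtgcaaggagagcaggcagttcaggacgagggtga
The match, on the reverse strand, begins 141 bases before the start, in 1 of 2 windows listed for the gene. Of these 2, the window shown was chosen because it holds the match. The same letters occurred in 23.4% of all windows, in 27.6% of the genes that rose, 28.6% of those that fell and 24% of all tested. For Klrk1, the receptor gene with the smallest p, the window at chr6:129623815-129624114, minus strand is shown with the AP-1 motif TGANTCA in capitals.
Klrk1: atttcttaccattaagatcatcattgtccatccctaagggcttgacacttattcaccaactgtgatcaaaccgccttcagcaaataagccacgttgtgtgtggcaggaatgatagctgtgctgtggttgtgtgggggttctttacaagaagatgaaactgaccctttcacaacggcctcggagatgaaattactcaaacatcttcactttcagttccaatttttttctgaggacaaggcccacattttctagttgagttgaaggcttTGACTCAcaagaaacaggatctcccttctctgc
It begins 17 bases after the start. This motif was in 7.81% of all windows, and in 13.8% (8 of 58) of the genes that rose, 9.52% (2 of 21) of those that fell and 6.26% (626 of 9995) of all tested. The STAT motif TTCNNNGAA was in 8.30% of all windows, and in 15.5% (9 of 58), 9.52% (2 of 21) and 8.45% (845 of 9995) of the same sets. The cyclic AMP element TGACGTCA (1.72%, 4.76% and 3.59%, against 1.79% of all windows) and the CArG box (5.17%, 9.52% and 1.53%, against 1.63%) rested on at most 3 genes in either changed set. All were searched on both strands, and a window can hold more than 1 motif. These shares are descriptions of letters in a short window and were given no test.

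Of 38 genes known as targets of STAT5 and the common gamma chain cytokines, whose signals pass through JAK kinases, 1 rose (Dusp5) and 2 fell (Cdk6 and Foxp3), with a median of -0.06. Cdk6 was at 69.0, 62.7 and 69.2 CPM in the RUX libraries and 32.7, 31.7 and 34.6 CPM in the RUX+CSA libraries. The groups were narrow and apart (log2 fold change -1.02, SE 0.17, adjusted p = 0.0125), and adjusted p reached 0.0713 without RUX+CSA pool 22. Cdk6 passed in 2 of the 6 fits with 1 library left out. Feedback genes of the same pathways did not pass: Cish was at 87.7, 119 and 88.3 CPM with both drugs against 212, 115 and 213 CPM with RUX (log2 -0.87, adjusted p = 0.343), Socs1 was at 72.3, 71.4 and 88.1 CPM with both drugs against 178, 96.7 and 126 CPM with RUX (log2 -0.79, adjusted p = 0.216) and Socs3 overlapped (log2 -0.23, adjusted p = 0.696). Bcl2 (log2 -0.21, adjusted p = 0.781) and Pim1 (log2 0.37, adjusted p = 0.437) did not pass. Among 38 JAK and STAT components, the member that passed was Il12rb2.

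Interferon response genes had lower levels with both drugs, without passing in edgeR. Of 40 interferon-gamma response genes, none passed, 35 were below 0 and the median was -0.35. An unadjusted p below 0.05 was found for 15 of them, beside 1881 of all 13175 genes tested. Lower calls numbered 4 in DESeq2, 0 in limma voom and 15 in edgeR on the 6 libraries alone. The list's mean level was 7.45 to 7.75 log2 CPM in the RUX libraries and 7.19 to 7.32 in the RUX+CSA libraries, which did not overlap. Gbp3, a guanylate-binding protein and the member with the smallest p, was at 161, 159 and 153 CPM in the RUX libraries and 88.6, 91.8 and 79.7 CPM in the RUX+CSA libraries (log2 -0.86, adjusted p = 0.0518). Irf1, an interferon-induced transcription factor, was at 349, 385 and 369.6 CPM with both drugs against 462, 438 and 489.7 CPM with RUX (log2 -0.33, adjusted p = 0.254).

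Of 53 type I interferon response genes, 42 were below 0 and the median was -0.28, yet the member that passed, Ifitm1, an antiviral membrane protein, was higher (log2 fold change 1.13, SE 0.23, adjusted p = 0.0363). Its adjusted p reached 0.136 without RUX+CSA pool 22, and it passed in 2 of the 6 fits with 1 library left out. The list's mean level was 5.55 to 5.84 log2 CPM with RUX and 5.38 to 5.49 with both drugs. The median over all genes tested was -0.01.

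Of the 31 function lists, with all 12 libraries, the 2 of cell division had the medians farthest from 0, again without a pass in edgeR. All but 1 of 52 S phase genes (median -0.67) and all but 1 of 68 mitosis genes (median -0.82) were below 0. None passed, although 36 and 42 had an unadjusted p below 0.05. Over all 13175 genes tested, 1881 had such a p, 999 of them lower. Lower calls numbered 15 and 13 in DESeq2, 1 and 0 in limma voom, and 24 and 17 in edgeR on the 6 libraries alone. The mean level of the mitosis genes was 5.66 to 6.50 log2 CPM with RUX and 4.96 to 5.48 with both drugs, so the groups were apart and the RUX libraries were spread widely. With 1 library left out, the median ran from -1.02 to -0.55 for mitosis and from -0.77 to -0.48 for S phase. Rfc4, a subunit of the clamp loader of DNA replication, was at 61.0, 74.4 and 48.9 CPM in the RUX libraries and 29.7, 23.8 and 39.7 CPM in the RUX+CSA libraries (log2 -0.99, adjusted p = 0.0588). Mki67, the proliferation marker Ki-67, was at 208, 275 and 168 CPM in the RUX libraries and 149, 110.2 and 125 CPM in the RUX+CSA libraries (log2 -0.76, adjusted p = 0.341).

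**Figure D3:**
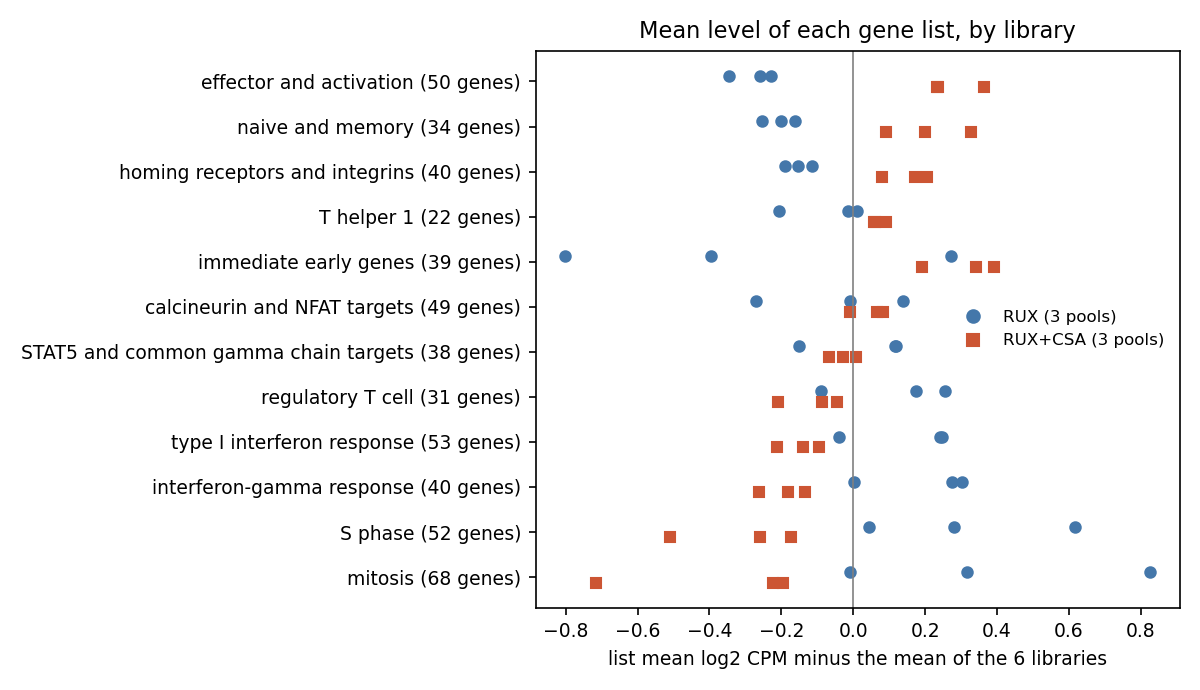
Mean log2 CPM of the tested genes of 12 lists in each library, minus the mean of the 6 libraries for that list. The effector, naive and memory, homing and T helper 1 lists are higher in the 3 RUX+CSA libraries, the interferon, S phase and mitosis lists are lower, and the immediate early, calcineurin and NFAT, STAT5 and regulatory T cell lists overlap.

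The genes that fell most were few and of varied function. Pkdcc, a secreted kinase of the extracellular matrix, was at 46.2, 38.0 and 39.9 CPM in the RUX libraries and 8.79, 12.3 and 10.1 CPM in the RUX+CSA libraries. The groups were far apart (log2 fold change -1.99, SE 0.30, adjusted p = 0.00534), and adjusted p was 0.145 in the 24-library fit. Arrdc4 was at 28.5, 16.0 and 21.9 CPM in the RUX libraries and 6.95, 7.49 and 4.54 CPM in the RUX+CSA libraries (log2 fold change -1.80, SE 0.26, adjusted p = 0.00466). Of the 27 genes that fell, these 2 passed with any of the 6 libraries left out.

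Gldc, the glycine decarboxylase of one-carbon metabolism, fell from 38.2 ± 5.01 to 14.6 ± 0.225 CPM (log2 -1.39, adjusted p = 0.0134), and reached adjusted p = 0.0757 without RUX+CSA pool 22. Nek6, a mitotic kinase, fell from 28.1 ± 2.87 to 11.2 ± 1.40 CPM (log2 -1.33, adjusted p = 0.0122; up to 0.068 without RUX pool 19). Epcam, an adhesion molecule, fell from 27.9 ± 9.28 to 10.3 ± 2.77 CPM (log2 -1.44, adjusted p = 0.0271; up to 0.152 without RUX pool 19). Tspan3, a tetraspanin, fell from 156 ± 29.7 to 89.9 ± 6.43 CPM (log2 -0.80, adjusted p = 0.00884; up to 0.0557 without RUX+CSA pool 22), and Fam46c, a poly(A) polymerase also called Tent5c, from 53.7 ± 4.22 to 29.6 ± 6.04 CPM (log2 -0.86, adjusted p = 0.0182; up to 0.0992 without RUX+CSA pool 23). All 5 were apart between the groups, and the largest adjusted p of each lay above the threshold. With 1 library left out, Tspan3 passed in 5 of 6 fits, Nek6 in 4, Gldc in 3, Epcam in 2 and Fam46c in 1.

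Genes of B cells gave the largest fold changes, from levels at or near 0. Of 16 B and plasma cell markers tested, 6 rose, none fell, 14 were above 0 and the median was 3.21. Higher calls numbered 9 in DESeq2, 7 in edgeR on the 6 libraries alone and 1 in limma voom. Ms4a1 (CD20) had no read pair in the 3 RUX libraries and was at 20.0, 14.5 and 4.03 CPM with both drugs, at least 383-fold higher against a floor of 3 counts over the group (adjusted p = 0.00238). Spib (at least 187-fold) and Fcer2a (at least 89.2-fold) were likewise at 0 in the 3 RUX libraries. Cd79a, a chain of the B cell receptor complex, was at 0.850, 0.719 and 0.739 CPM in the RUX libraries and 19.0, 13.4 and 1.76 CPM in the RUX+CSA libraries (log2 3.88, adjusted p = 0.0128). RUX+CSA pool 24 had the lowest level of each of these 4 genes in its group. None of the 4 passed in limma voom, with adjusted p = 0.077 for Ms4a1, 0.0573 for Spib, 0.0619 for Fcer2a and 0.169 for Cd79a. The 21 markers in the table summed to 20.3 to 23.9 CPM with RUX and 42.7 to 153 CPM with both drugs, a small amount beside the T cell genes. Without RUX+CSA pool 22 or pool 23, 1 of the 6 markers still passed, and without any 1 RUX pool 2 did. These markers were named after their values were seen.

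Npas4, an activity-induced transcription factor that is no B cell marker, was also near 0 with RUX, at 0, 0.163 and 0.0986 CPM in the RUX libraries and 5.62, 4.28 and 5.50 CPM in the RUX+CSA libraries (adjusted p = 0.00534, named after its values were seen). In the other direction, P2ry6 and Pdgfc had no read pair in the 3 RUX+CSA libraries and were at least 11.3-fold and 14.4-fold lower than with RUX, from below 1 CPM. These 2 were also named after their values were seen.

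Other marker lists moved without a pass in edgeR over 12 libraries. Of 24 neutrophil and granulocyte markers, 23 were above 0 (median 0.83) and 2 had an unadjusted p below 0.05. Neither DESeq2 nor limma voom called any, and edgeR on the 6 libraries alone called 9 higher and 1 lower. The secondary granule gene Ngp was at 1954, 1071 and 1140.5 CPM with RUX and 2234, 2767 and 2123 CPM with both drugs. Mpo, a gene of granulocyte precursors, was at 101.2, 97.7 and 92.8 and 336, 318 and 335 CPM. All 16 erythroid markers tested were above 0 (median 2.20), and 6 had an unadjusted p below 0.05. DESeq2 called 5 of them higher, edgeR on the 6 libraries alone 8, and limma voom none. The erythroid sum was 386 to 425 CPM against 527 to 988 CPM, with pool 24 the highest, while 4 globin genes were listed at 0 in all 6 libraries. Macrophage and monocyte markers summed to 1096 to 1792 and 1707 to 2121 CPM, which overlap, while their median was -0.62. DESeq2 and limma voom called none of them, and edgeR on the 6 libraries alone called 2 lower. When the mean of 90 markers of other cells was put into the model as a covariate, 73 of the 103 genes still passed and all 103 kept their direction. That mean also differs between treatments, since 50.3% of its variance lay between the 4 CD4 groups.

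**Figure D4:**
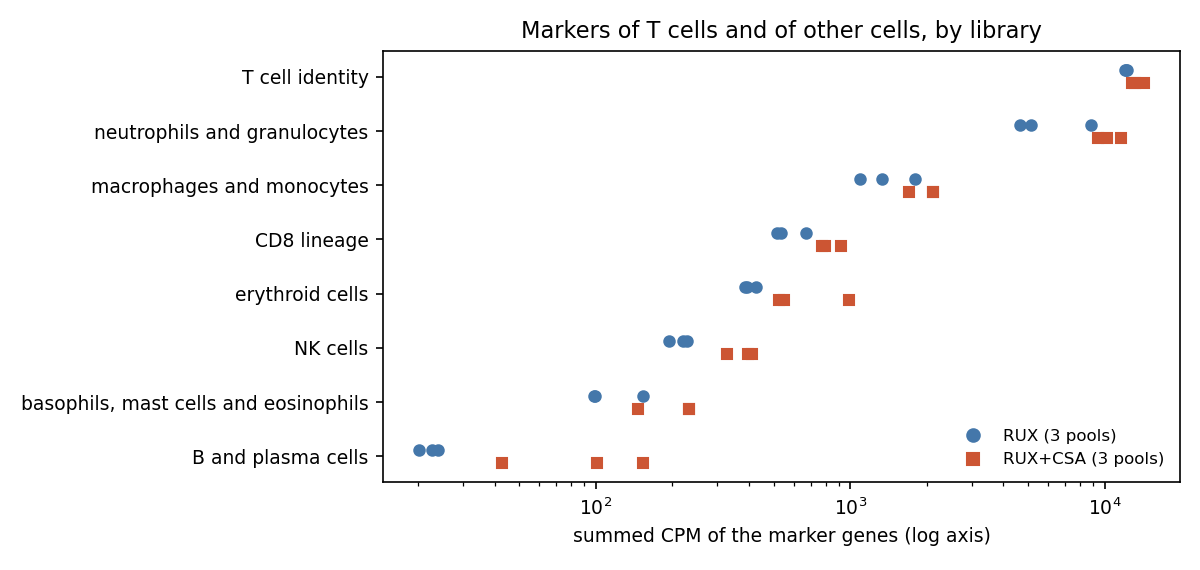
Summed CPM of the marker genes of 8 cell types in each library, on a log axis. The sums of neutrophil, CD8, erythroid, NK and B cell markers in the 3 RUX+CSA libraries lie above those of the 3 RUX libraries, and the macrophage and basophil sums overlap. The T cell sum is also apart and higher, at 12013 to 12280 CPM with RUX and 12799 to 14215 CPM with both drugs. The CD8 sum includes Klrc1 and Klrd1, and the NK sum includes Klrk1 and Klre1, the receptor genes that rose.

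The same step could be examined without RUX, since the 3 CSA libraries and the 3 untreated CD4 libraries are none of the 6 above. CSA against untreated changed 195 of 13175 genes (1.48%), 132 higher (1%) and 63 lower (0.478%). In both comparisons 59 genes passed, 49 higher and 10 lower, with no gene in opposite directions. That is 57.3% of the genes that changed with RUX and 30.3% of those that changed without it. Leaving out CSA pool 18 took the 195 to 48, and leaving out CSA pool 17 took it to 111, while edgeR on those 6 libraries alone called 13 and DESeq2 655. Untreated pool 14 correlated least with the other CD4 libraries, at 0.899 to 0.953 in log2 CPM against 0.939 to 0.980 among the other 11. Without it 204 genes were called, 122 of them among the 195. Markers of other cells also differed in this comparison: erythroid markers had a median of 3.57 with 4 of 16 higher, neutrophil markers a median of 1.52 with none passing, and macrophage markers a median of -1.28 with 2 of 28 lower. Their part in the 195 was not tested. Of the 103 genes, 97 had the same direction without RUX, as did 65.4% of all genes tested, and 84 were at an unadjusted p below 0.05 in that direction. Over all 13175 genes, 2130 had an unadjusted p below 0.05 in CSA against untreated, in either direction. Across all 13175 genes the log2 fold changes of the 2 comparisons had a Pearson correlation of 0.413, where genes are not independent replicates and the libraries differ but share the fit and its scaling.

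The receptor genes rose in both settings on the log2 scale: Klrc1 by 2.69 with RUX and 2.73 without it (adjusted p = 0.00436), Klrk1 by 2.11 and 1.81 (adjusted p = 0.0012), and Klrd1 by 1.33 and 1.21 (adjusted p = 0.00234). Foxp3 fell by 0.99 with RUX and by 0.99 without it (adjusted p = 0.0127), from 62.3, 58.5 and 98.0 CPM in untreated pools to 40.1, 33.2 and 36.4 CPM in CSA pools. Bach2 (2.02), Lmna (2.51), Egr3 (1.09), Il12rb2 (1.43) and Pkdcc (-2.40) also passed without RUX. Nfatc1 was at 839.7, 1129 and 821 CPM untreated and 951, 1268 and 1079.7 CPM with CSA, with a log2 fold change of 0.24 (adjusted p = 0.394). Cdk6 (-0.12, adjusted p = 0.787), Arrdc4 (-0.73, adjusted p = 0.183) and Tsc22d1 (1.51, adjusted p = 0.096) did not pass without RUX. Ms4a1 was at 0.0336, 0 and 0 CPM in untreated pools and 0, 0 and 0 CPM in CSA pools.

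A difference between the 2 settings was tested as an interaction. In edgeR no gene passed of 13175 (0%), 629 were at an unadjusted p below 0.05, and the smallest adjusted p was 0.338. DESeq2 called 17 and limma voom none, and edgeR called 6 without untreated pool 15. For Cdk6 the interaction was -0.90 (adjusted p = 0.797), for Arrdc4 -1.07 (0.883) and for Nfatc1 0.52 (0.93), so a different effect with RUX was not shown for these genes. DESeq2's calls included Ms4a1 and Npas4, which are near 0 in several libraries.

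**Figure D5:**
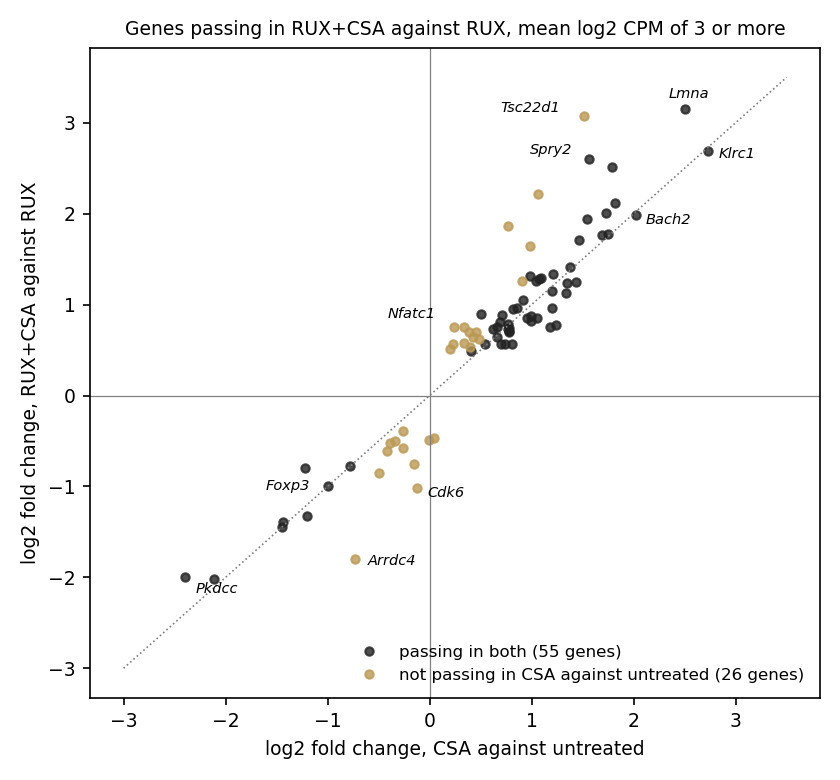
Log2 fold change on adding CSA without RUX (horizontal) and with RUX (vertical), for the 81 of 103 genes that passed with RUX and averaged 3 or more in log2 CPM. Black points (55) also passed in CSA against untreated, tan points (26) did not, and the dotted line marks equal change. Every black point has the same sign on both axes, and Tsc22d1, Arrdc4, Cdk6 and Nfatc1 are among the tan points.

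The same drug step in CD8 cells of mice on the same treatments was set beside it in a fit of all 24 libraries. No gene passed in the test of CD4 minus CD8 (0 of 13476, 0%), 1110 were at an unadjusted p below 0.05, and the smallest adjusted p was 0.0643. DESeq2 called 30, including Tsc22d1, Spry2 and Gucy1a3, and limma voom none. EdgeR called 5 without CD4 RUX+CSA pool 24 and 1 without CD8 RUX pool 7. Tsc22d1 had a log2 fold change of 0.08 in CD8 cells, and the difference was 2.99 (adjusted p = 0.128). Foxp3 had -0.47 in CD8 cells and a difference of -0.52 (0.721), and Egr3 0.38 and 0.91 (0.696). For the receptor genes and Lmna, CD8 RUX pool 7 stood apart from the other CD8 RUX pools. Klrc1 was at 1228, 368 and 371 CPM in CD8 RUX pools 7, 8 and 9 and at 1137, 1056 and 889 CPM in CD8 RUX+CSA pools 10, 11 and 12. Klrk1 was at 664, 187 and 194 CPM and 513, 498 and 428 CPM in the same pools, and Lmna at 35.6, 3.29 and 3.00 CPM and 26.1, 33.9 and 23.4 CPM. For Klrc1, Klrk1 and Lmna, pool 7 was above all 3 RUX+CSA pools, while pools 8 and 9 were below all of them. With pool 7, the log2 fold change in CD8 cells and the difference were 0.65 and 2.04 for Klrc1 (adjusted p = 0.464), 0.46 and 1.65 for Klrk1 (0.536), and 1.00 and 2.16 for Lmna (0.603). Without pool 7 they were 1.47 in CD8 cells and a difference of 1.21 (adjusted p = 0.649) for Klrc1, 1.33 in CD8 cells and a difference of 0.78 (adjusted p = 0.774) for Klrk1 and 3.14 in CD8 cells and a difference of 0.01 (adjusted p = 1) for Lmna. Tsc22d1 without pool 7 had 0.47 in CD8 cells and a difference of 2.60 (adjusted p = 0.2).

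Other genes of lineage choice were examined. Gata3, of T helper 2 cells, overlapped (log2 0.29, adjusted p = 0.428), as did Cxcr5, of follicular helper cells (log2 0.27, adjusted p = 0.72). Bcl6, the follicular helper factor, was at 29.1, 29.9 and 34.9 CPM with both drugs against 14.1, 17.2 and 17.7 CPM with RUX. Its groups were apart, but it did not pass in edgeR over 12 libraries (log2 0.94, adjusted p = 0.0731). It passed in limma voom (adjusted p = 0.0469), in DESeq2 (0.00668), and in edgeR on the 6 libraries alone (0.00922) and on all 24 (0.0484). In edgeR over 12 libraries no gene passed among 15 T helper 2 genes, 11 T helper 17 genes or 22 follicular helper genes. Of these, 1, 0 and 6 were at an unadjusted p below 0.05, beside 1881 of all 13175 genes. The calls were 0, 0 and 4 in DESeq2 and 0, 0 and 1 in limma voom. EdgeR on the 6 libraries alone called 3 follicular helper genes higher and 2 lower, and 0 in the T helper 2 and T helper 17 lists. Medians of metabolic and housekeeping lists were close to 0: the respiratory chain (76 genes) had a median of -0.04, ribosomal proteins (80) -0.06, glycolysis and hypoxia (40) 0.07, and sterol and fatty acid synthesis (37) -0.01, with none passing in edgeR over 12 libraries. An unadjusted p below 0.05 was found for 2, 0, 3 and 5 of their genes. The calls were 0, 0, 1 and 2 in DESeq2, none in limma voom, and 0, 0, 1 and 1 in edgeR on the 6 libraries alone. With 1 library left out, the median ran from -0.14 to 0.04 for the respiratory chain, from -0.16 to 0.07 for ribosomal proteins and from -0.05 to 0.03 for sterol and fatty acid synthesis, so their signs were not stable.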

How the data were processed

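RNA from sorted marrow CD4 and CD8 cells was made into libraries with a SMART-Seq mRNA LP kit, per the labels' protocols, and aligned to mm10 with STAR (version not given in the sources used here), per the submitters' processing notes. The deposited values are counts of read pairs per gene that the authors made with featureCounts 2.0.3 over exons grouped by gene, with no strand option, per the file headers, so overlapping and antisense genes, and near-identical copies, cannot be told apart. From these counts, genes were filtered by edgeR's default rule (13175 of 24421 kept in the 12 CD4 libraries, 13476 in 24), scaled by TMM (factors 0.975 to 1.01 in the 6 libraries) and tested with edgeR 4.0.16 (quasi-likelihood, robust) in R 4.3.3, with Benjamini-Hochberg adjustment over all genes tested and a threshold of 0.05. Printed p-values are from edgeR unless limma 3.58.1 (voom) or DESeq2 1.42.0 is named. CPM values are per TMM-scaled library, means are ± SD (n = 3 pools), and the depth was 17.7 to 32.7 M read pairs per library, so the p-values cover the spread between pools. The comparisons were RUX+CSA against RUX, CSA against untreated, their difference, and CD4 minus CD8 (fitted over 24 libraries).

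Named genes were up to 10 each way by fold change (log2 CPM averaging 3 or more, groups apart), up to 3 passing members of each list, the 3 members with the smallest p as a list's examples, and a fixed set of T cell genes. Nab1, Nab2, Klra3, Tspan2, Xdh, Lgals3, Plek, Npas4, Pdgfc, P2ry6, Gzmk, Itgae and the marker genes of other cells were named after their values were seen. Some items chosen by the rule are not reported here. The genes described and the lists were chosen with earlier results of these data known. On simulated counts of this design with 200 changed genes, the main test recovered 77% of changes of 1 log2 unit and 96% of 2, with 7 false among 180 calls (12970 genes). In that simulation the unchanged genes had the same mean in all groups, genes of low level were not changed, and other cell types did not shift. These rates need not hold for the real libraries, whose markers of other cells differ between the groups. Alternatives were another tool, scaling, filter, set of libraries, a marker covariate and each library left out. Promoter windows came from a RefSeq table (GRCm38.p6), matched by symbol for 9995 of the 13175 genes.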

Additional observations from a re-analysis of the deposited data

How the results depend on the processing

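RUX+CSA against RUX gave 103 genes, and 94 with limma voom, 107 with DESeq2's size factors, 107 with library totals alone, 102 with the stricter filter, 90 without robust estimation and 143 with the marker covariate. It gave 552 with DESeq2, 560 with only the 6 libraries, 250 with all 24 libraries and 206 with no filter, of which 53.1%, 57.9%, 45.2% and 60.2% were higher, against 73.8% of the 103. Of the 103 genes, DESeq2 called 102, voom 80, both 79 and the 24-library fit 71. With 1 library left out the count ran from 35 (without RUX pool 19) to 184 (without untreated pool 14); with voom and that pool left out, chosen after seeing the data, it was 137. CSA against untreated gave 195 genes (67.7% higher), 655 with DESeq2, 13 with only its 6 libraries (92.3% higher), 198 with library totals alone (56.6% higher), and 48 (without CSA pool 18) to 204 (without untreated pool 14). The difference with and without RUX gave 0, 17 with DESeq2, 1 with no filter, and 0 to 6 with 1 library left out (6 without untreated pool 15). CD4 minus CD8 gave 0, 30 with DESeq2, and 0 to 5 with 1 library left out. The causes were not tested, other than that the 6-library fits hold fewer samples and the filters change the number of genes tested. Among the 62 named genes, signs turned for genes that did not pass: with the marker covariate Bcl2 was 0.11, Ctla4 0.0029 and Ifng -0.025, and with 1 library left out Ctla4 ran from -0.30 to 0.22, Egr2 from -0.18 to 0.020, Fasl from -0.37 to 0.027, Il2 from -0.53 to 0.095 and Ppp3cb from -0.12 to 0.0078. List medians near 0 turned sign too: with 1 library left out, 11 of 31 function lists had medians of both signs, and that of calcineurin and NFAT targets ran from -0.03 to 0.12. Over the 62 named genes and all alternatives, 1295 values kept their direction and side of the threshold, 99 no longer passed, 21 newly passed and 10 turned sign. Genes near 3 counts per library (0.0916 to 0.170 CPM) cannot be compared at this depth. No paired analysis was possible because each pool number belongs to a single library and is shared by no other group.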
